A study of Mus musculus with 12 samples.

Results

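The genes described here belong to families that include enzymes adding or removing methyl and acetyl groups on histones. Not every member is such an enzyme. The genes were measured in mouse T-cell lymphomas driven by the oncogene MYC, with and without the DNA methyltransferase Dnmt3a, and in normal thymocytes. Members were all genes whose symbol begins with Kdm, Setd, Kmt2, Hdac, Kat, Ehmt, Suv, Nsd or Prdm, with a number after it where the family is numbered, among probe sets that the array annotation assigns to a single gene. The rule found 75 probe sets of 70 genes, out of 19309 genes measured this way. Where a gene had several probe sets, as 5 members did, the set with the highest mean over the 12 arrays stood for it. The rule used symbols and overall brightness, not group differences.

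The 4 arrays of Dnmt3a-deficient tumors came from T-cell lymphomas of mice in which Dnmt3a was deleted in blood-forming cells in the presence of MYC, taken at the terminal stage. The 5 arrays of control tumors came from MYC lymphomas labelled wild type, also at the terminal stage, and the 3 arrays of normal thymocytes came from wild-type mice at 24 dpn. All RNA was from thymus of FVB/N mice, so both tumor groups share MYC. The sources used here do not name the promoters that drive MYC and the deletion, nor say whether the arrays of a group came from separate animals, and a p-value therefore covers only the spread among these arrays. No batch is labelled, and age differs together with tumor state, so age, batch and tumor cannot be told apart. Values are log2 signals, so a difference of 1 is a doubling of signal, and a probe set's value is compared only with itself across arrays. A gene was called higher or lower at an adjusted p under 0.05 from limma, a linear model fitted to all 19309 genes and all 12 arrays.

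Histone methylation is written by enzymes with a SET domain and erased by demethylases of the LSD and Jumonji (JmjC) families. Methylation of lysine 4 of histone H3 (H3K4) marks promoters and enhancers, methylation of H3K36 follows transcribed gene bodies, and methylation of H3K9 and H3K27 is tied to silencing. Acetyltransferases (KATs) add acetyl groups that open chromatin, and deacetylases (HDACs) take them away. These marks also meet DNA methylation directly: Dnmt3a binds histone H3 that lacks methylation at lysine 4 through its ADD domain, and methylated H3K36 through its PWWP domain.

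The Dnmt3a probe set read 7.33, 7.62, 7.19 and 7.53 in Dnmt3a-deficient tumors, against 8.58, 8.52, 8.48, 8.19 and 9.57 in control tumors, and 9.63, 9.48 and 9.33 in normal thymocytes. All 4 deficient tumors lay below all 8 other arrays. The difference from control tumors was -1.25 (SE 0.229, adjusted p = 0.0317), though this call was not made in 6 of 20 refits with other settings or without single arrays (adjusted p up to 0.108). Those 6 include the refits without control tumor 3 and without deficient tumor 1, 3 or 4. Array medians were alike at 6.40 to 6.58, but the 75th percentile of signal was 8.50 to 8.60 in the deficient tumors and control tumors 1 and 2, against 8.13 to 8.30 in control tumors 3 to 5 and normal thymocytes. RMA as usually run equalizes the signals of single probes across all arrays, then summarizes them into probe sets. Probe-set distributions are then alike but need not be equal, and the percentiles above differ between the 2 sets of arrays. Whether arrays were normalized in separate sets is not known here, and it would bear on every difference between those 2 sets of arrays. The mean of 12 T-cell markers was 9.74 to 10.44 in deficient tumors, 10.10 to 10.74 in control tumors and 11.12 to 11.33 in normal thymocytes, so T-cell RNA was prominent on every array. The mean of 11 proliferation genes was 10.28 to 10.46 in deficient tumors and 9.30 to 10.23 in control tumors, against 7.98 to 8.62 in normal thymocytes. Control tumors 3 and 4 also carried neutrophil markers (mean of 9 genes 8.12 and 7.87, against 5.33 to 6.73 elsewhere), and control tumor 2 adipocyte markers (mean of 7 genes 8.80, against 5.15 to 5.70 elsewhere). What part these shifts play in the results below was not tested, and in bulk RNA fewer cells of a type and less RNA per cell cannot be told apart.

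Most members gave a clear signal. Their means over the 12 arrays ran from 5.07 for Prdm14, a germ-cell regulator, to 11.1 for Hdac1, a class I deacetylase, and 59 of the 70 were among the 9655 genes with the higher means. The other 11 were Hdac9, Hdac11, Kdm4d, Suv39h2 and 7 of the 12 PRDM genes. A dim probe set compresses differences, so values of these 11 may understate a change. The members varied more among control tumors than in either other group: the median SD over members was 0.162 in deficient tumors, 0.302 in control tumors and 0.154 in normal thymocytes, and over all genes it was 0.186, 0.278 and 0.186 in the same groups.

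**Figure D1:**
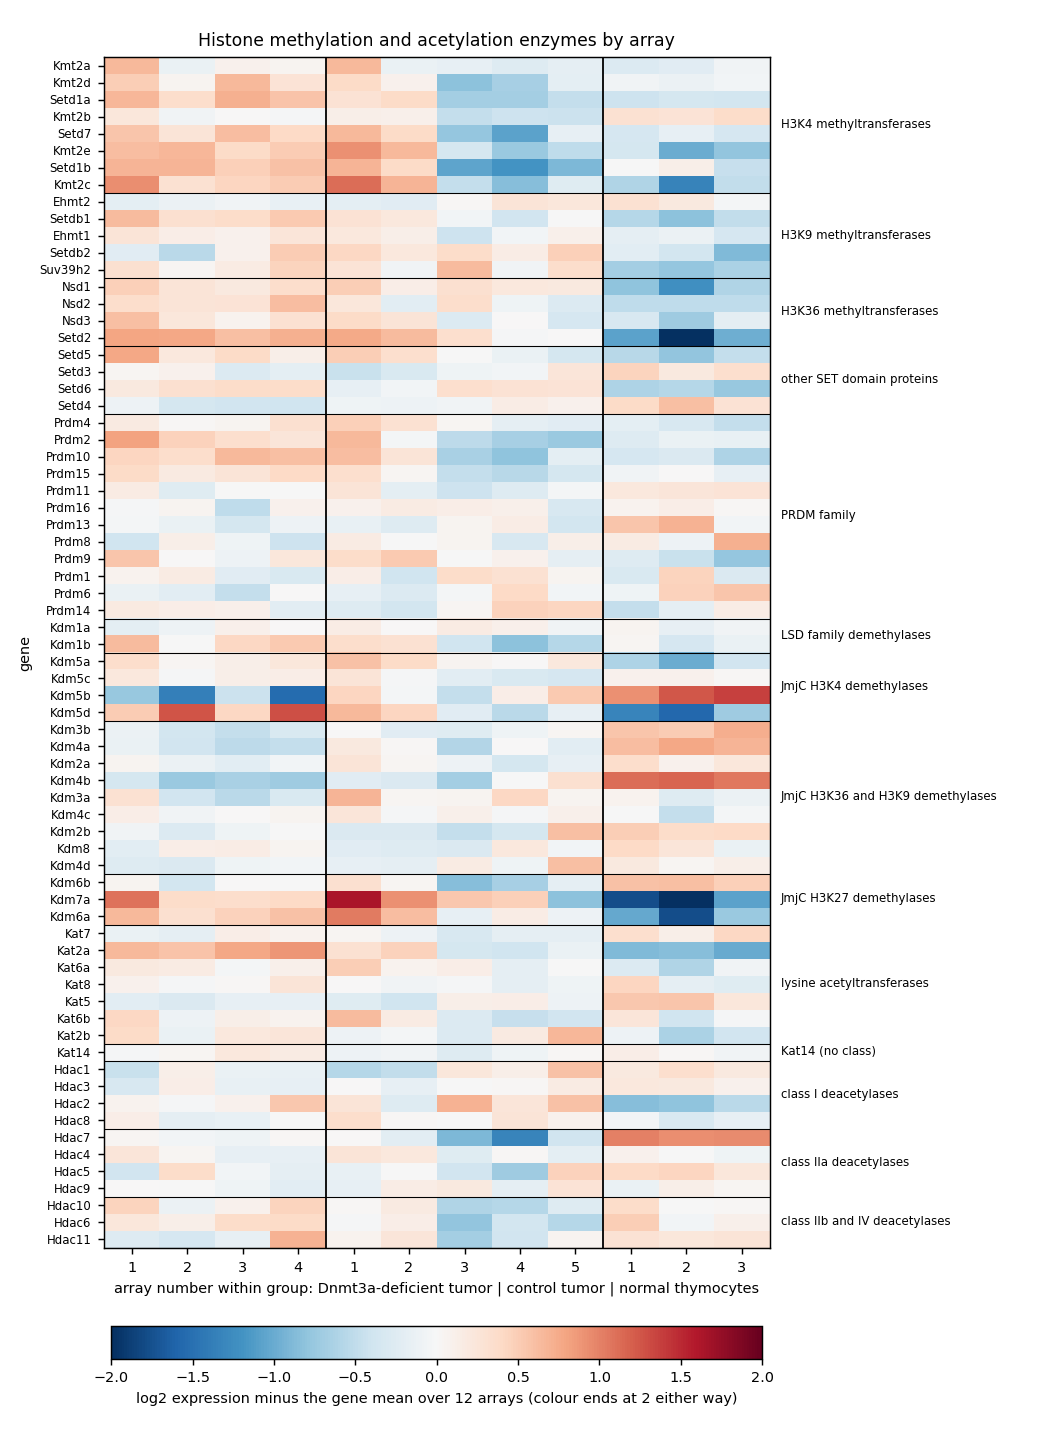
Log2 signal of each of the 70 members on each of the 12 arrays, as the difference from that gene's mean over all arrays (red higher, blue lower, colour ending at 2 in each direction), with genes grouped by enzyme class and Dnmt3a-deficient tumors on the left, control tumors next and normal thymocytes on the right. Setd2 and Kdm7a stand out as higher and Kdm4b and Kdm5b as lower in both tumor groups, and control tumors 1 and 2 resemble the deficient tumors in the H3K4 methyltransferase rows.

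Between Dnmt3a-deficient tumors and normal thymocytes, 19 members were higher, 8 were lower and 43 were not called. That is 38.6% of the members, beside 37.6% of all genes, so the share as a whole was near the background. In the higher direction it was 27.1% of members beside 18.7% of all genes, and in the lower direction 11.4% beside 19%. The median difference was 0.11 over the members and -0.10 over all genes. When only the 9655 genes with the higher means were tested, 45.8% of 59 members were called beside 56.4% of genes, with medians of 0.21 and 0.20. Between control tumors and normal thymocytes, 15 members were higher, 10 lower and 45 not called, or 35.7% of members beside 24.4% of all genes (21.4% beside 13% higher, 14.3% beside 11.3% lower), with medians of -0.02 and -0.08. Among the genes with the higher means this was 42.4% of members beside 44.9%. The split into higher and lower depended on the scaling of the arrays. For deficient tumors it was 17 higher and 15 lower after cyclic loess (24.3% and 21.4%, beside 17.1% and 15.4% of all genes). Once the arrays were quantile normalized again it was 16 and 18 (22.9% and 25.7%, beside 16% and 18.5%). For control tumors cyclic loess gave 13 and 13 (18.6% each, beside 12.7% and 10.8%). The second quantile normalization gave 14 and 17 (20% and 24.3%, beside 12.1% and 13.8%).

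Both comparisons use the same 3 normal arrays, so their calls are given side by side and not as separate support for each other. The 14 members called higher in both were Hdac2, Kat2a, Kdm5a, Kdm5d, Kdm6a, Kdm7a, Nsd1, Nsd2, Prdm9, Setd2, Setd5, Setd6, Setdb1 and Suv39h2. The 7 called lower in both were Hdac7, Kat5, Kdm3b, Kdm4a, Kdm4b, Kdm5b and Setd4. A further 5 were called higher (Kmt2c, Kmt2e, Nsd3, Prdm10, Setd1a) and 1 lower (Prdm13) for deficient tumors only, and 1 higher (Setdb2) and 3 lower (Kat7, Kdm6b, Kmt2b) for control tumors only. A call in 1 comparison and not in the other does not show that the tumor groups differ, and 39 members were called in neither.

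**Figure D2:**
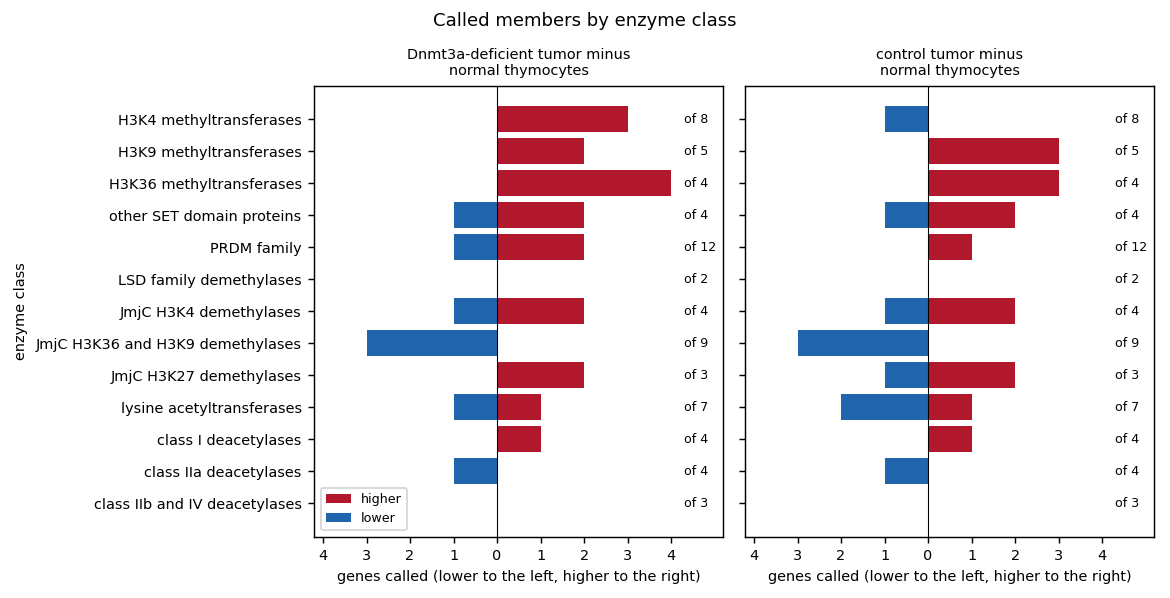
Number of members called higher (right of 0) and lower (left of 0) against normal thymocytes in each enzyme class, with Dnmt3a-deficient tumors in the first panel and control tumors in the second. The H3K36 methyltransferases reach 4 of 4 higher in deficient tumors and 3 of 4 in control tumors, and the JmjC demethylases of H3K36 and H3K9 have 3 of 9 lower and none higher in each. Over all genes 18.7% were higher and 19% lower in deficient tumors, and 13% and 11.3% in control tumors.

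The enzymes that write H3K36 methylation were higher in tumors. All 4 measured members rose in Dnmt3a-deficient tumors and 3 of 4 in control tumors against normal thymocytes, with median differences of 1.04 and 0.83. Over all genes 18.7% and 13% were higher, and 35.6% and 26.7% among the genes with the higher means. Setd2, the enzyme that places the third methyl group on H3K36 behind elongating RNA polymerase II, read 9.50, 9.49, 9.31 and 9.42 in deficient tumors, 9.46, 9.35, 9.05, 8.69 and 8.71 in control tumors and 7.63, 6.17 and 7.73 in normal thymocytes. Every tumor lay above every normal array, and normal array 2 was the lowest by more than a unit. Such a lack of overlap was common: over all genes, 23% had every deficient tumor above the normal arrays and 26.7% below. For control tumors these shares were 13.8% and 14%. The differences were 2.25 (SE 0.32, adjusted p = 0.000133) for deficient tumors and 1.87 (SE 0.306, adjusted p = 0.000577) for control tumors. The second Setd2 probe set gave 2.26 and 2.00.

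Nsd1, which adds methyl groups to H3K36 outside gene bodies as well, read 10.46, 10.25, 10.19 and 10.35 in deficient tumors, 10.48, 10.12, 10.31, 10.21 and 10.18 in control tumors and 9.19, 8.77 and 9.39 in normal thymocytes. Tumors and normal arrays did not overlap, while both tumor groups covered nearly the same range. The differences were 1.20 (adjusted p = 8.78e-05) and 1.14 (adjusted p = 0.000136). Nsd2, its relative known as an oncogene in human myeloma and lymphoid leukemia, read 10.08, 9.97, 9.998 and 10.34 in deficient tumors and 9.95, 9.51, 10.07, 9.63 and 9.44 in control tumors, against 9.21, 9.21 and 9.22 in normal thymocytes. Again no tumor overlapped the normal arrays. Nsd2 was higher by 0.88 in deficient tumors (adjusted p = 0.00128) and by 0.51 in control tumors (adjusted p = 0.0367), and the second of these calls was lost in 10 of 19 refits (adjusted p up to 0.147), among them those without any one of the normal arrays and those without control tumor 1 or 3. Nsd3, the third family member, was higher by 0.71 in deficient tumors (adjusted p = 0.0166), a call lost after cyclic loess (adjusted p = 0.139), after a second quantile normalization (0.0779) and without normal array 2 (0.0882). Its difference of 0.41 in control tumors was not called (adjusted p = 0.156).

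Of the 9 measured JmjC demethylases classed as acting on H3K36 and H3K9, 3 were lower, none was higher and 6 were not called in each tumor group, with medians of -0.30 and -0.29. With cyclic loess or a second quantile normalization 5 were lower in each. Under these 2 scalings 15.4% and 18.5% of all genes were lower in deficient tumors, and 10.8% and 13.8% in control tumors. The shares that follow are those of the main fit. Over all genes 19% were lower in deficient tumors and 11.3% in control tumors, and 20.8% and 18.1% among the genes with the higher means. A class of 9 is small beside such shares. Kdm4b, which removes methyl groups from H3K9 and H3K36, read 8.36, 7.96, 8.06 and 7.99 in deficient tumors, 8.48, 8.42, 8.02, 8.70 and 9.03 in control tumors and 9.83, 9.87 and 9.77 in normal thymocytes. All 9 tumors were below the normal arrays, with the deficient tumors in the lower part of the tumor range. The differences were -1.73 (SE 0.202, adjusted p = 2.94e-05) and -1.29 (adjusted p = 0.000291). Its paralog Kdm4a read 9.47, 9.23, 9.08 and 9.12 in deficient tumors and 9.79, 9.63, 9.02, 9.61 and 9.40 in control tumors, against 10.22, 10.38 and 10.29 in normal thymocytes. Kdm4a was lower, with differences of -1.07 (adjusted p = 0.000468) and -0.80 (adjusted p = 0.00375), again without overlap. Kdm3b, an H3K9 demethylase, was the third: it read 9.60 to 9.97 in deficient tumors, 9.84 to 10.12 in control tumors and 10.59 to 10.81 in normal thymocytes, with differences of -0.91 (adjusted p = 0.000207) and -0.70 (adjusted p = 0.00166). The remaining 6, Kdm2a, Kdm2b, Kdm3a, Kdm4c, Kdm4d and Kdm8, were not called, with differences between -0.58 and 0.35.

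**Figure D3:**
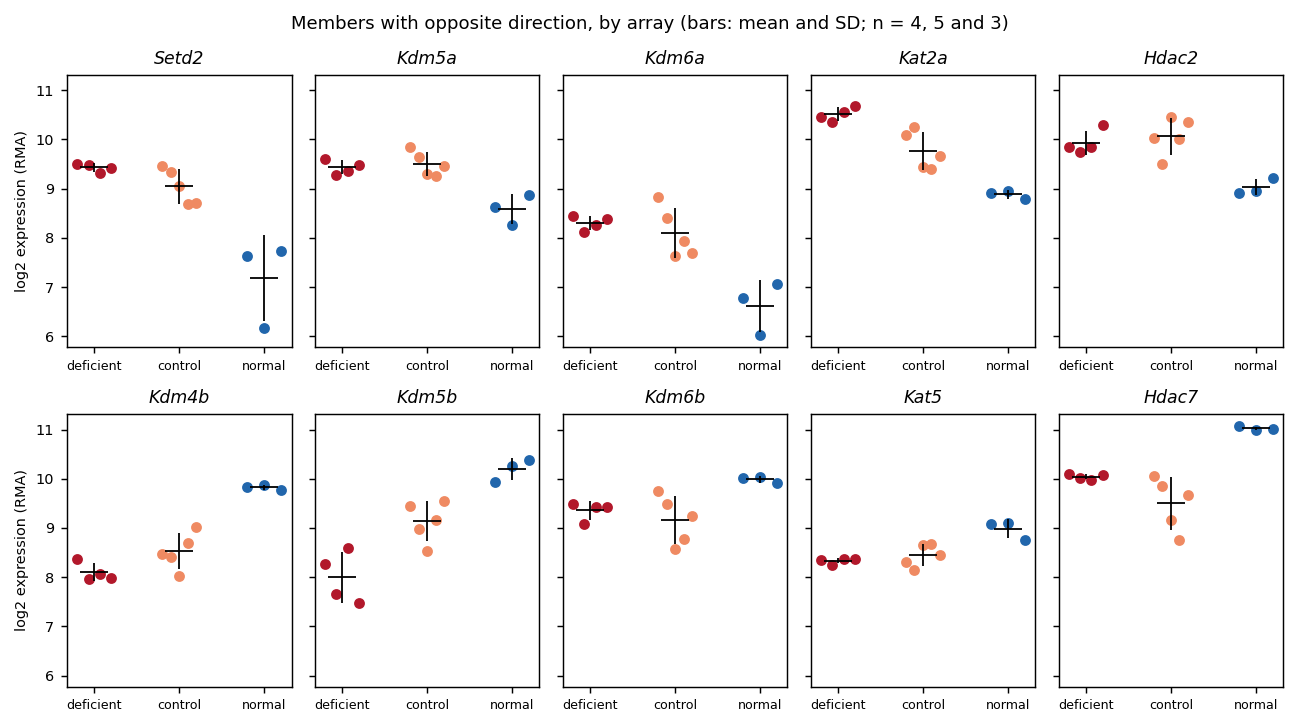
Log2 signal on every array for 10 members, in columns that set one higher in tumors (top) above one with the other sign (bottom), with Dnmt3a-deficient tumors left, control tumors in the middle and normal thymocytes right. Points are arrays and black marks the mean and SD of each group. Setd2 lies at 9.31 to 9.50 in deficient tumors, 8.69 to 9.46 in control tumors and 6.17 to 7.73 in normal thymocytes, and Kdm5b at 7.48 to 8.59, 8.54 to 9.55 and 9.94 to 10.38 in the same order.

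The H3K4 demethylases of the KDM5 family went different ways. Kdm5b, which removes H3K4 methylation at promoters, read 8.27, 7.66, 8.59 and 7.48 in deficient tumors, 9.45, 8.99, 8.54, 9.15 and 9.55 in control tumors and 9.94, 10.27 and 10.38 in normal thymocytes. Normal arrays were highest and deficient tumors lowest, with only deficient tumor 3 and control tumor 3 out of order between the tumor groups. Kdm5b was lower in both, with differences of -2.20 in deficient tumors (SE 0.284, adjusted p = 6.46e-05), the most negative among the members, and -1.06 in control tumors (adjusted p = 0.0116). The second of these calls was lost without normal array 2 (adjusted p = 0.0503) or 3 (0.0539). Its paralog Kdm5a read 9.61, 9.29, 9.36 and 9.47 in deficient tumors and 9.84, 9.64, 9.30, 9.26 and 9.46 in control tumors, against 8.63, 8.26 and 8.87 in normal thymocytes. It was higher by 0.85 (adjusted p = 0.00267) and 0.92 (adjusted p = 0.00166). Kdm5c, the X-linked paralog, differed by 0.04 and -0.19 and was not called.

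Kdm5d, the copy on the Y chromosome, read 8.28, 9.03, 8.19 and 9.06 in deficient tumors, 8.42, 8.20, 7.54, 7.24 and 7.61 in control tumors and 6.46, 6.20 and 7.06 in normal thymocytes. No tumor overlapped the normal arrays, and the differences were 2.06 (adjusted p = 0.000246) and 1.23 (adjusted p = 0.00932). The second call was lost without normal array 2 (adjusted p = 0.0617). The labels give no sex. Xist, transcribed from the inactive X chromosome of female cells, read 3.90 to 5.10 on all arrays, and Eif2s3y, another Y-linked gene, 7.19 to 10.39. Uty, also on the Y chromosome and a paralog of Kdm6a, was higher by 1.68 in deficient tumors and by 1.25 in control tumors (adjusted p = 0.000529 and 0.00452). The share of each sex in the groups, and its part in the Kdm5d difference, was not tested.

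Of the 3 H3K27 demethylases, 2 were higher in both tumor groups, beside 18.7% of all genes in deficient and 13% in control tumors. Kdm7a, which also acts on H3K9, read 9.82, 9.11, 9.09 and 9.14 in deficient tumors, 10.36, 9.65, 9.28, 9.21 and 7.91 in control tumors and 6.96, 6.66 and 7.66 in normal thymocytes. Control tumor 5 stood close to the normal arrays, the other 8 tumors well above them. The differences were 2.20 (adjusted p = 0.00169) and 2.19 (adjusted p = 0.00185). The second Kdm7a probe set gave smaller differences of 1.18 and 1.56. Kdm6a, the X-linked demethylase known as UTX, a tumor suppressor in human T-cell leukemia, read 8.44, 8.11, 8.25 and 8.38 in deficient tumors and 8.83, 8.41, 7.64, 7.94 and 7.69 in control tumors, against 6.77, 6.02 and 7.06 in normal thymocytes. It was higher by 1.68 (adjusted p = 0.000627) and 1.49 (adjusted p = 0.0016), without overlap. Its paralog Kdm6b, known as JMJD3, had the other sign: it differed by -0.63 in deficient tumors (adjusted p = 0.0555, not called) and was lower in control tumors, with a difference of -0.82 (adjusted p = 0.0194). That call was lost without normal array 1 (adjusted p = 0.063) or 2 (0.0725).

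Of the 5 measured H3K9 methyltransferases, 2 were higher in deficient tumors and 3 in control tumors, and none was lower. Over all genes 18.7% and 13% were higher. Setdb1, which silences endogenous retroviruses together with the adaptor Trim28, read 9.81, 9.50, 9.56 and 9.70 in deficient tumors, 9.47, 9.39, 9.13, 8.79 and 9.17 in control tumors and 8.62, 8.36 and 8.68 in normal thymocytes. The 3 groups did not overlap in this order. The differences from normal were 1.09 (adjusted p = 0.000282) and 0.64 (adjusted p = 0.0116, but 0.0689 without normal array 2). Suv39h2, a heterochromatin enzyme with a dim probe set, was higher by 0.93 (adjusted p = 0.00131) and 0.92 (adjusted p = 0.00155). Setdb2 was higher in control tumors by 0.81 (adjusted p = 0.0155, but 0.0922 without normal array 3). Ehmt1 and Ehmt2, which form the G9a and GLP complex of euchromatin, differed by 0.39 and -0.29 in deficient tumors and were not called.

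Of the 7 acetyltransferases, 1 was higher and 1 lower in deficient tumors and 1 and 2 in control tumors. Of the 11 deacetylases, 1 was higher and 1 lower in each, beside 37.6% and 24.4% of all genes called in the 2 comparisons. Kat2a, known as GCN5 and a subunit of the SAGA coactivator that MYC recruits, read 10.45, 10.36, 10.57 and 10.68 in deficient tumors, 10.09, 10.25, 9.44, 9.39 and 9.66 in control tumors and 8.91, 8.95 and 8.78 in normal thymocytes. The 3 groups did not overlap. Kat2a was higher by 1.63 (SE 0.203, adjusted p = 4.84e-05) and 0.89 (adjusted p = 0.00453) against normal thymocytes. Kat5, known as TIP60 and the enzyme of the NuA4 complex, read 8.34, 8.26, 8.37 and 8.38 in deficient tumors and 8.30, 8.15, 8.66, 8.67 and 8.44 in control tumors, against 9.09, 9.11 and 8.76 in normal thymocytes. It was lower, with differences of -0.65 (adjusted p = 0.00548) and -0.54 (adjusted p = 0.017), with the second call lost without normal array 1 (adjusted p = 0.0718) or 2 (0.0806). Kat7, known as HBO1, was lower in control tumors, with a difference of -0.44 (adjusted p = 0.0299), a call lost in 6 of 19 refits (adjusted p up to 0.115) that include those without normal array 1 or 3 and without control tumor 3. Kat2b, Kat6a, Kat6b and Kat8 were not called, nor was Kat14, which stands outside these classes.

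Among deacetylases, Hdac2 and Hdac7 moved in opposite directions. Hdac2, a class I enzyme of the NuRD and Sin3 complexes, read 9.84, 9.74, 9.85 and 10.29 in deficient tumors, 10.02, 9.50, 10.45, 10.01 and 10.35 in control tumors and 8.91, 8.96 and 9.21 in normal thymocytes. It was higher by 0.90 (adjusted p = 0.00551) and 1.04 (adjusted p = 0.0024), and the first call was lost after a second quantile normalization (adjusted p = 0.0501) and cyclic loess (0.0784). Hdac7, the class IIa enzyme that double-positive thymocytes express strongly and that restrains negative selection, read 10.10, 10.01, 9.98 and 10.09 in deficient tumors and 10.06, 9.84, 9.16, 8.75 and 9.66 in control tumors, against 11.07, 10.998 and 11.004 in normal thymocytes. Every tumor was below the normal arrays, control tumor 4 furthest, and the differences were -0.98 (adjusted p = 0.00809) and -1.53 (adjusted p = 0.000433). Hdac1, Hdac3, Hdac8, Hdac4, Hdac5, Hdac9, Hdac6, Hdac10 and Hdac11 were not called in either comparison. Hdac1, the closest relative of Hdac2, differed by -0.39 in deficient tumors and by -0.27 in control tumors, against the sign of Hdac2, and its second probe set by -0.48 and -0.30. Hdac10, a class IIb enzyme that acts on polyamines, differed by 0.09 and -0.37.

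In the remaining classes, Setd6, which methylates non-histone proteins such as RelA, was higher by 0.96 (adjusted p = 0.000278) and 0.78 (adjusted p = 0.00133), reading 9.09 to 9.27 in deficient tumors, 8.74 to 9.23 in control tumors and 8.15 to 8.33 in normal thymocytes. Setd5, whose catalytic activity is debated, was higher by 0.98 (adjusted p = 0.00311) and 0.68 (adjusted p = 0.0285, a call lost in 7 of 19 refits, with adjusted p up to 0.125, including those without any one of the normal arrays and those without control tumor 1 or 2). Setd4 was lower, with differences of -0.73 (adjusted p = 0.0011) and -0.42 (adjusted p = 0.0309, a call lost in 9 of 19 refits, with adjusted p up to 0.148, including those without normal array 1 or 2 and those without control tumor 1, 2 or 3). Setd3, the actin histidine methyltransferase, differed by -0.42 and -0.46 and was not called (adjusted p = 0.0728 and 0.059). Of 12 PRDM genes, zinc-finger proteins with a SET-like domain, 2 were higher and 1 lower in deficient tumors. In control tumors 1 was higher. Over all genes these shares were 18.7%, 19% and 13%. Prdm9, which positions meiotic recombination, was dim at 5.51 to 6.18 in deficient tumors, 5.44 to 6.15 in control tumors and 4.84 to 5.36 in normal thymocytes. Its calls were lost in 4 of 15 and 5 of 18 refits (adjusted p up to 0.106 and 0.137), including those without normal array 2 or 3, without deficient tumor 1 or 4 and without control tumor 1 or 2. Prdm10 was higher in deficient tumors by 0.93 (adjusted p = 0.021, but 0.0806 without normal array 3 and 0.0502 without deficient tumor 4), and the dim Prdm13 was lower, with a difference of -0.56 (adjusted p = 0.0344, lost in 8 of 15 refits, with adjusted p up to 0.271, including those without normal array 1 or 2 and without deficient tumor 2, 3 or 4). Prdm4, the brightest of the family, differed by 0.48 (adjusted p = 0.0539) and 0.41 (adjusted p = 0.104) and was not called. Kdm1a and Kdm1b, the LSD demethylases of H3K4, were not called, with differences of 0.02 and 0.13 for Kdm1a and 0.53 and -0.08 for Kdm1b.

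The promoters of the members that carry these differences are shown for the largest called difference in each direction with an available sequence, Setd2 and Kdm5b, and for the called genes with the letters CACGTG, the E-box that MYC binds with its partner MAX. The letters read the same on both strands. RefSeq promoter sequences were at hand for 52 of the 70 members, in 72 windows of the 250 bases before an annotated start, in build GRCm38.p6. A gene can have several such starts, and some windows lie within the span of the gene. CACGTG stood in 5 of the 72 windows (6.94%), beside 6.02% of 32851 promoters of the same length, so the share was near that of all promoters. The 4 genes were Ehmt2, Kat5, Kdm4c and Kdm6a, of which Kdm6a was higher and Kat5 lower in tumors, and Ehmt2 and Kdm4c were not called. The median number of CG dinucleotides, the substrate of Dnmt3a, was 17.5 over the member windows, against 6 over all promoters. The set of all promoters was not matched to the members in signal, and methylation of these windows was not examined here. In the sequences below, printed from 5′ to 3′ on the strand of the gene, capitals mark CACGTG.
Setd2: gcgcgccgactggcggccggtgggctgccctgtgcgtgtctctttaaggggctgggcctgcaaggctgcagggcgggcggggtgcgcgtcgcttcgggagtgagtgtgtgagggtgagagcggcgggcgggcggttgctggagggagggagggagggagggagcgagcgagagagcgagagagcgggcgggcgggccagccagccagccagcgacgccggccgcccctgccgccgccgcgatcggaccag
Kdm5b: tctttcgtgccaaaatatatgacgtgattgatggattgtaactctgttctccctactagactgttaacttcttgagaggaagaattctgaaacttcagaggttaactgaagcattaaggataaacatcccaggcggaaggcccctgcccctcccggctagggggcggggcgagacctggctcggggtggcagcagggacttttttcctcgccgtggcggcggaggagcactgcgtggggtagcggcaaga
Kdm6a: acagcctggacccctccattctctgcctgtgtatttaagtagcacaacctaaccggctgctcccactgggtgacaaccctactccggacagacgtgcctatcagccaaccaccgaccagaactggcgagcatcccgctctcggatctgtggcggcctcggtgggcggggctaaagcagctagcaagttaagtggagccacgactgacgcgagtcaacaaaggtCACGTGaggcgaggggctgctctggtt
Kat5: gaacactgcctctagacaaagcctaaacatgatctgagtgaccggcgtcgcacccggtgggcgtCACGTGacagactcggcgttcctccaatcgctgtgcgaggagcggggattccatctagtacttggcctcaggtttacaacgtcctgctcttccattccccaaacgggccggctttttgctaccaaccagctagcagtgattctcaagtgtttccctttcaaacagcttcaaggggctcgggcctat
The Setd2 window is chr9:110532347-110532596 on the plus strand with 31 CG dinucleotides, and the Kdm5b window chr1:134559928-134560177 on the plus strand with 13. Neither holds CACGTG in these 250 bases. The Kdm6a window is chrX:18162325-18162574 on the plus strand, with CACGTG beginning 27 bases before that start, and the Kat5 window is chr19:5610095-5610344 on the minus strand, with CACGTG beginning 186 bases before it. Both lie wholly within the annotated span of their gene, so they precede an internal start. The Setd2 window lies partly within its gene, whose annotated span begins at 110532500, so it also precedes an internal start. A second Kat5 window, before another start, holds no CACGTG. A match of letters says nothing of binding in these cells, which was not measured.

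Between Dnmt3a-deficient and control tumors, none of the 70 members was called, beside 0.818% of all genes (0.59% higher and 0.228% lower). At an unadjusted p under 0.05 there were 19 members and 3897 genes in all. The median difference was 0.10 over the members and -0.01 over all genes, and 44 members had a positive and 26 a negative difference. This lean depended on scaling: the members' median was 0.013 after cyclic loess, with 37 positive, and 0.0049 after a second quantile normalization, with 35 positive. Among the 9655 genes with the higher means the median was 0.16 over 59 members and 0.13 over all. Kat2a and Setdb1 in the higher direction and Setd4 in the lower had tumor groups that did not overlap, where 3.8% of all genes did so in the higher and 2.35% in the lower direction. Their differences were 0.75 for Kat2a (SE 0.179, adjusted p = 0.0726), 0.45 for Setdb1 (adjusted p = 0.136) and -0.30 for Setd4 (adjusted p = 0.184).

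**Figure D4:**
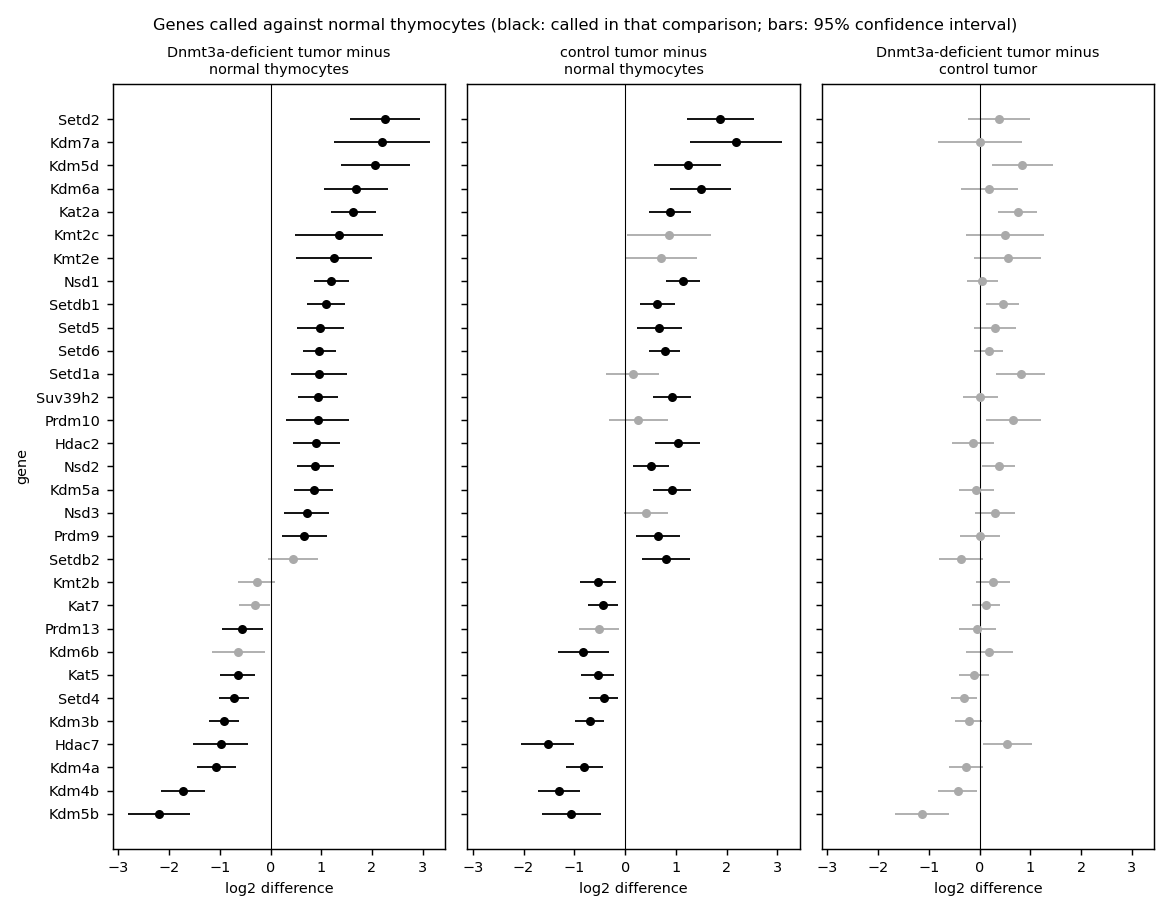
Log2 differences from normal thymocytes of the members called against them, for Dnmt3a-deficient tumors (left) and control tumors (middle), and between the tumor groups (right). Points are limma differences with 95% intervals, black where called and grey where not. On the right all points are grey, and Kdm5b lies furthest from 0 at -1.14.

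Kdm5b had the lowest adjusted p of the members between the tumor groups. Its difference of -1.14 (SE 0.25, 95% interval -1.68 to -0.60) had an adjusted p of 0.0555, which missed the threshold. Over the other settings the adjusted p ran from 0.0161 to 0.191, and Kdm5b was called lower after cyclic loess, a second quantile normalization, median centring or array weighting, when only the brighter genes were tested, and without control tumor 1 or 2. For Kat2a the adjusted p ran from 0.000242 to 0.346.

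None of the 8 genes classed here by name as H3K4 methyltransferases was called between the tumor groups. Their enzyme activity was not measured. All 8 had a positive difference between deficient and control tumors, from 0.18 for Kmt2a to 1.03 for Setd1b, with a median of 0.58 and a lowest adjusted p of 0.0985. The class was described after its values were seen. Its median was 0.41 after cyclic loess and 0.43 after a second quantile normalization, with all 8 still positive and the lowest difference at 0.027 and 0.043. Setd1b, a catalytic subunit of the COMPASS complex that trimethylates H3K4 at promoters, read 9.30, 9.29, 9.09 and 9.20 in deficient tumors, 9.29, 8.9996, 7.56, 7.42 and 7.71 in control tumors and 8.61, 8.72 and 8.14 in normal thymocytes. Control tumors 1 and 2 lay close to the deficient tumors, and control tumors 3 to 5 below the normal arrays. Setd1a, its paralog, read 9.85, 9.53, 9.90 and 9.76 in deficient tumors and 9.47, 9.56, 8.50, 8.51 and 8.72 in control tumors, against 8.77, 8.84 and 8.81 in normal thymocytes. The same 2 control tumors were high. The differences between tumor groups were 1.03 (SE 0.35, adjusted p = 0.142) for Setd1b and 0.81 (SE 0.222, adjusted p = 0.0985) for Setd1a.

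Kmt2c and Kmt2e, members of the MLL family of which Kmt2c acts at enhancers, had the same split. Kmt2c read 9.50, 8.88, 8.9994 and 9.08 in deficient tumors and 9.69, 9.25, 8.10, 7.72 and 8.33 in control tumors, against 7.97, 7.23 and 8.08 in normal thymocytes. Kmt2e read 9.45, 9.49, 9.20 and 9.33 in deficient tumors and 9.73, 9.48, 8.48, 8.09 and 8.31 in control tumors, against 8.47, 7.83 and 8.03 in normal thymocytes. In each, control tumors 1 and 2 were within or above the deficient range and the other 3 near the normal arrays. Against normal thymocytes Setd1a, Kmt2c and Kmt2e were higher in deficient tumors, by 0.95 (adjusted p = 0.00981), 1.35 (adjusted p = 0.0177) and 1.26 (adjusted p = 0.012), and the calls of Kmt2c and Kmt2e were lost without normal array 2 (adjusted p = 0.0917 and 0.0574). In control tumors no H3K4 methyltransferase was higher, and Kmt2b was lower, with a difference of -0.54 (adjusted p = 0.0301), a call lost in 9 of 19 refits (adjusted p up to 0.124), including those without any one of the normal arrays and those without control tumor 3, 4 or 5. For Kmt2d the 2 probe sets disagreed in sign against normal thymocytes: the brighter set gave 0.45 in deficient tumors and the other -0.78, with 0.61 and 0.02 between the tumor groups.

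**Figure D5:**
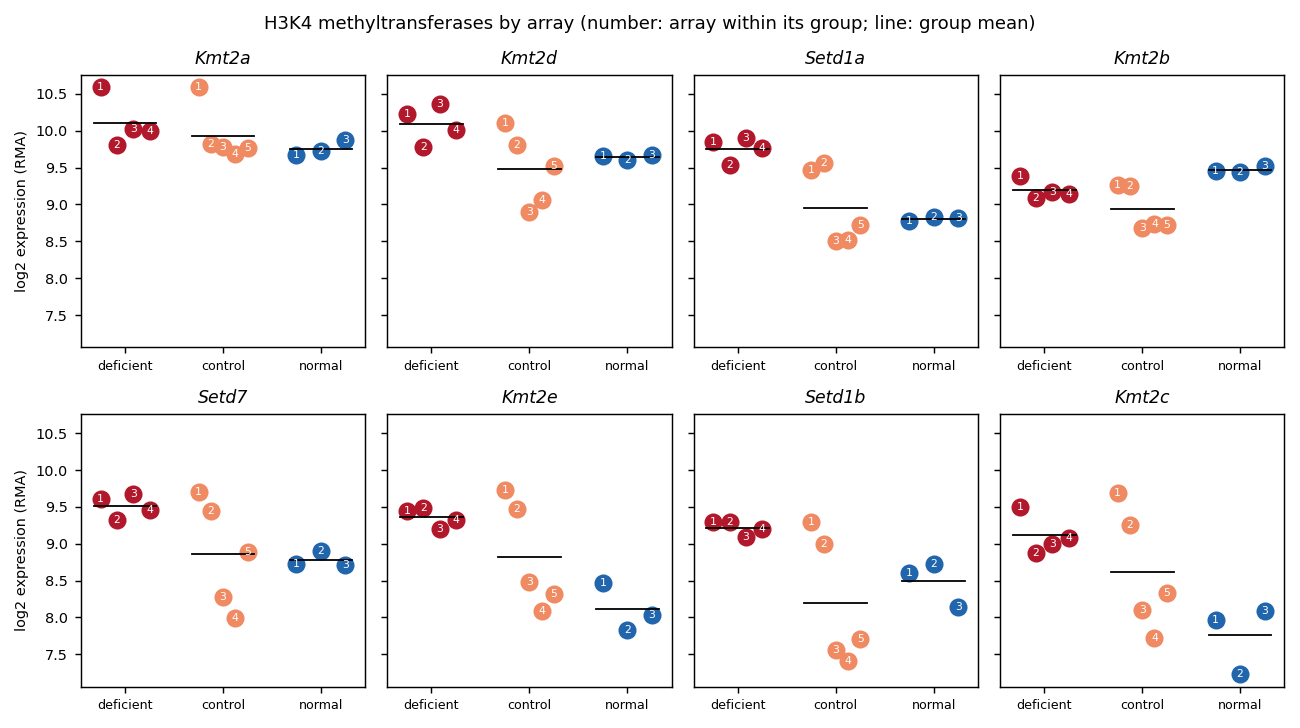
Log2 signal of the 8 genes classed as H3K4 methyltransferases on each array, 1 panel per gene. Dnmt3a-deficient tumors are left, control tumors in the middle and normal thymocytes right. Points are arrays with their number in the group, and lines are group means. In Setd1b, control tumors 1 and 2 lie at 9.29 and 8.9996 and control tumors 3 to 5 at 7.42 to 7.71.

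The comparison of the tumor groups turned on which control tumors were in it. Without control tumors 1 and 2, 20 members were called higher and 1 lower in deficient tumors, or 30% of members beside 25.3% of all genes (28.6% beside 16.1% higher, 1.43% beside 9.24% lower). Without control tumors 3 and 4, the 2 with neutrophil markers, 0 members were called in either direction, beside 0.0311% of all genes. In that fit 6 of 70 members were under an unadjusted p of 0.05, beside 1937 of all 19309 genes. The median over the members was 0.16 in the first case and 0.02 in the second, and that of the H3K4 methyltransferases 1.07 and 0.18. Control tumors 1 and 2 had a 75th percentile of signal like the deficient tumors. They are also the control arrays closest to the deficient tumors, and not in these genes alone. Over all genes they correlated by 0.9636 to 0.982 with the deficient tumors and by 0.9398 to 0.9528 with control tumors 3 to 5. Leaving out control tumors 1 and 2 thus widens the gap by construction, and the values describe only the other 3 control tumors. Leaving out control tumor 1 alone gave 7 members higher (10% beside 4.08% of all genes). Leaving out control tumor 2 alone gave 4 (5.71% beside 5.71%), the same share as over all genes. Kat2a differed by 1.02 without control tumors 1 and 2 and by 0.51 without control tumors 3 and 4, and Kdm5b by -1.08 and -1.33.

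The split was not confined to the class. Without control tumors 1 and 2, 20 members were called higher and 1 lower, and only 7 of those called higher were H3K4 methyltransferases. Kdm1b read 8.22 and 8.17 in control tumors 1 and 2 and 7.05 to 7.47 in control tumors 3 to 5. Sirt6, a histone-modifying enzyme outside the rule, read 10.26 and 10.25, and 7.88 to 8.33, in the same arrays. Prdm2, a zinc-finger protein with a PR domain, also had the split. It read 9.10, 8.75, 8.63 and 8.53 in deficient tumors and 8.94, 8.24, 7.78, 7.63 and 7.55 in control tumors, against 8.04, 8.16 and 8.14 in normal thymocytes. Control tumors 3 to 5 were below every other array, and the difference between the tumor groups, 0.73, was not called (adjusted p = 0.141). The proliferation genes averaged 10.23 and 10.05 in control tumors 1 and 2 and 9.76, 9.44 and 9.30 in control tumors 3 to 5, and the neutrophil markers 5.69 and 5.75, and 8.12, 7.87 and 5.63, in the same arrays. The part of proliferation, of other cells or of the overall signal distribution in the split was not tested.

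Genes that work with these enzymes were described from lists of 114 symbols, of which 97 were found, all outside the rule. Most symbols not found were older names of members, such as Whsc1 for Nsd2, Mll1 for Kmt2a and Myst1 for Kat8. None of the 97 was called between the tumor groups. Against normal thymocytes 36 were higher and 12 lower in deficient tumors, and 21 and 11 in control tumors, with medians of 0.30 and 0.11, where all genes had 18.7% higher and 19% lower in deficient tumors and 13% and 11.3% in control tumors. Most of the 97 were bright. Among the genes with the higher means 35.6% were higher and 20.8% lower in deficient tumors, and 26.7% and 18.1% in control tumors. The counts of the 97 were near or below those shares. The lists below are small and are read against both sets of shares. Other histone-modifying enzymes had 15 of 28 higher and 4 lower in deficient tumors, led by the lysine methyltransferase Smyd2 at 2.56 (SE 0.229, adjusted p = 3.89e-06), the arginine methyltransferase Carm1 at 2.13 (adjusted p = 0.000152) and Smyd5 at 1.88 (adjusted p = 1.79e-06). In control tumors 10 were higher and 3 lower, and these genes differed by 2.29, 1.39 and 1.60.

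Of 12 cofactors of the H3K4 methyltransferases, 2 were higher and 3 lower in deficient tumors, and 1 and 3 in control tumors. Psip1, the tether of the menin and MLL complex, was higher by 2.36 (adjusted p = 1.26e-05) and 1.72 (adjusted p = 0.000154), while Wdr82, the subunit that binds RNA polymerase II, was lower, with differences of -0.77 (adjusted p = 0.00356) and -0.49 (adjusted p = 0.0445), as was Men1, which encodes menin, with -0.40 and -0.64 (adjusted p = 0.034 and 0.0029). Of 22 subunits of deacetylase complexes, 11 were higher and 2 lower in deficient tumors and 4 and 2 in control tumors. The histone chaperone Rbbp7 led at 1.86 (adjusted p = 3.46e-06) and 1.40 (adjusted p = 3.17e-05), and the scaffold Sin3b was lower, with differences of -1.15 (adjusted p = 0.000239) and -1.52 (adjusted p = 3.09e-05).

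Of 23 subunits of acetyltransferase complexes, 5 were higher and 1 lower in deficient tumors and 3 and 2 in control tumors. Tada2a, an adaptor that works with Kat2a, was higher by 2.17 (adjusted p = 1.13e-06) and 1.90 (adjusted p = 3.22e-06), and Ing4, a subunit of the Kat7 complex, was lower, with differences of -1.21 and -1.01 (adjusted p = 0.000612 and 0.00235). Of 12 readers of histone marks, 3 were higher and 2 lower in deficient tumors and 3 and 1 in control tumors. Cbx5, the heterochromatin protein HP1 alpha that binds methylated H3K9, was higher by 2.43 (adjusted p = 3.14e-06) and 1.85 (adjusted p = 2.67e-05). Bptf, which binds trimethylated H3K4 in the NURF remodelling complex, was higher by 1.01 and 0.74 (adjusted p = 0.000647 and 0.00598), and Brd1 was lower, with differences of -0.72 and -0.83 (adjusted p = 0.00378 and 0.00147).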

How the data were processed

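Total RNA of thymus was measured on 12 single-channel arrays after biotin labelling, per the labels' protocols. The authors deposited log2 values per probe set. The submitters' processing notes name RMA and Affymetrix Expression Console, without versions. Of 23858 probe sets, the platform annotation gave a single gene symbol to 20870, several to 1453 and none to 1535, and only the first kind was used. Each gene was represented by its brightest probe set on average, which left 19309 genes. All 70 members were found in a RefSeq gene table (GRCm38.p6).

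Tests used limma 3.58.1 under R 4.3.3, with 1 model with 3 group means (9 residual and 4.17 prior degrees of freedom), eBayes, two-sided tests, Benjamini-Hochberg adjustment over the 19309 genes of a contrast. No filter was applied. The number of arrays limits the precision, signals have a floor, and total RNA per cell is not seen. Groups and replicate numbers came from the sample titles. Alternatives were other scalings, array weights, a trend in eBayes, the mean of all probe sets, only the genes with the higher means, 2-group fits, a replicate block and leaving out arrays. Members and lists were chosen with earlier results of these data known. Named were the 10 largest called differences without overlap per direction, the brightest member of each class, and up to 3 called genes of each list. Other members called against normal thymocytes, the H3K4 methyltransferases and Kdm5b were given after their values were seen. The fit was tested on simulated data.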

Additional observations from a re-analysis of the deposited data

Results flagged for a closer look

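A member's value was singled out where 1 array lay far from the others of its group by Dixon's test, which applies to the deficient and control tumors and picks about 1 in 20 groups by chance. It did so in 5 of 140 pairs of gene and group. Kdm7a read 9.82 in Dnmt3a-deficient tumor 1, above the 9.09 to 9.15 of the other deficient tumors. Kdm6b read 9.07 in deficient tumor 2, below the 9.42 to 9.49 of the others. Kmt2a read 10.59 in control tumor 1, where the other control tumors lay at 9.68 to 9.82. In control tumor 5, Kdm2b read 8.87 beside 7.80 to 7.99 in the other control tumors, and the dim Prdm16 read 5.80 beside 6.20 to 6.29.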

How the results depend on the processing

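Of 902 refits of single called genes under other settings, 821 kept direction and call, 81 lost the call and 0 reversed. Between Dnmt3a-deficient and control tumors, where no member was called, 15 members were called higher and 1 lower with array weights, 1 and 1 after median centring, 20 and 1 without control tumors 1 and 2, and 1 lower after cyclic loess, after a second quantile normalization and when only the genes with the higher means were tested. That member was Kdm5b in each case. Leaving out single arrays gave 0 to 7 higher (7 without control tumor 1, 4 without control tumor 2) and 0 to 1 lower (1 without either), with medians of 0.04 to 0.12. Over all genes 4.08% were higher and 1.17% lower without control tumor 1, and 5.71% and 1.96% without control tumor 2. Against normal thymocytes, deficient tumors had 29 members higher (41.4% beside 21.6% of all genes) when only these 2 groups were fitted. With array weights 14 were lower (20% beside 25% of all genes), and after cyclic loess 15 (21.4% beside 15.4%). A second quantile normalization gave 18 lower (25.7% beside 18.5%) and moved the median to -0.049. Leaving out single arrays gave 15 to 21 higher, 7 to 8 lower and medians of 0.059 to 0.23, the last without normal array 1. Over all genes these fits had 15.5% to 17.9% higher and 12.6% to 17% lower. Control tumors had 6 members lower when only 2 groups were fitted (8.57% beside 8.26% of all genes). After a second quantile normalization they had 17 (24.3% beside 13.8%). Leaving out single arrays gave 10 to 16 higher (10 without normal array 2), 5 to 12 lower (5 without normal array 1 or 2) and medians of -0.07 to 0.04. Over all genes these fits had 9.82% to 14.1% higher and 6.74% to 12.2% lower. The causes of these moves were not tested. Over all genes, calls between the tumor groups numbered 114 higher and 44 lower with all arrays, 3102 and 1784 without control tumors 1 and 2, and 4 and 2 without control tumors 3 and 4. With the replicate number as a block, 0 members were called between the tumor groups, beside 0.539% of all genes. For deficient tumors 21 were higher and 10 lower, beside 18.6% and 17.3% of all genes. For control tumors it was 15 and 9, beside 13.6% and 10.3%. Arrays of the same number correlated by -0.134 to 0.338 in their deviations from the group means, and those of different numbers by -0.319 to 0.209. The highest value was between control tumor 1 and deficient tumor 1. Deviations from the means of so few arrays cannot decide whether the numbers pair them.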
